A study of Homo sapiens with 7 samples.

Results

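In SW1990 cells, a human pancreatic cancer line, 8336 H3K4me1 intervals lay far from gene starts and were found in control cells without a counterpart in KMT2D knockdown cells. The members were chosen by their position and by presence in one list and absence from the other. The midpoint of a member lay more than 10 kb from the 5′ end of every one of 20033 protein-coding genes of GENCODE release 44, and no interval of the knockdown H3K4me1 list lay within 1000 bases of it. The control list held 64843 intervals, of which 51927 were distal in this sense, and the 6 lists of the study held 158138 intervals in all. Of the distal control intervals, 16.1% were thus members, with an exact binomial 95% interval of 15.7% to 16.4% that covers counting error only. Among the 12916 control intervals closer to a gene start, the corresponding share was 15.4%. Distance was taken to 1 5′ end per gene. With the starts of all transcripts of these genes, 6839 intervals qualified as members. Presence in one list and absence from the other is the rule itself, so it is described here and not tested.

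ChIP-seq had been carried out for KMT2D, EBF2 and H3K4me1 in SW1990 cells with a negative control shRNA (NC) and in SW1990 cells with shRNA knockdown of KMT2D (KMT2D-KD), and an input library completed the 7 samples. Each target had 1 library in each condition, so no value below has a replicate check and no p-value was computed between conditions. The labels give shRNA as the treatment of both conditions. They do not say from which of them the input was taken. Differences between the cell populations other than KMT2D cannot be told apart from the knockdown. The KMT2D level itself was not analysed here.

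H3K4me1, monomethylation of lysine 4 of histone H3, marks enhancers and the flanks of promoters. KMT2D, with its relative KMT2C, is the main enzyme placing this mark at enhancers, where it works with lineage transcription factors. Enhancers lie in introns and between genes, often far from the promoter they act on, and many carry motifs of AP-1, the FOS and JUN dimer that binds open chromatin in epithelial tumour cells.

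The sequences of 5 members are shown first. They were among the strongest not set aside by a tandem repeat score or by nearness to undetermined bases. Tandem repeats can score too low to be set aside, and repeats of other kinds were not searched for. Each is the 200 bases around the summit, forward strand of hg38. The first 3 were among the 12 members with the highest −log10 q, and the TNC and PRELID2 intervals were lower in the order. Capitals mark matches to the searched motifs on either strand.
MAP4K4 intron, chr2:101785610-101785809: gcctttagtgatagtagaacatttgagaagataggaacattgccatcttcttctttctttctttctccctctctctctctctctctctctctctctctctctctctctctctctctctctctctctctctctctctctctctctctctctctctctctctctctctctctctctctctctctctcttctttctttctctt
near ALG10, chr12:35156021-35156220: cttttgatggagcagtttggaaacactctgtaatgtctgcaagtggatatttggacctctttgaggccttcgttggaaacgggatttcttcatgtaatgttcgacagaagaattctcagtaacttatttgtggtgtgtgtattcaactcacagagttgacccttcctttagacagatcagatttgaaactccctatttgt
ABI3BP intron, chr3:100882890-100883089: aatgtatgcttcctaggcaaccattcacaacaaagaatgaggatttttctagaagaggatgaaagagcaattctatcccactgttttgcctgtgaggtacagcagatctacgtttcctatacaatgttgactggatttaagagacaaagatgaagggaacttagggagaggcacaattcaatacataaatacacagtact
TNC intron, chr9:115071595-115071794: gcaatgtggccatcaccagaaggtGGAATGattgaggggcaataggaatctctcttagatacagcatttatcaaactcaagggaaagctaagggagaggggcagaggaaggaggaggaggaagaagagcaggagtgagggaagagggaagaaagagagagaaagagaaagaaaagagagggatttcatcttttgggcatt
near PRELID2, chr5:145111425-145111624: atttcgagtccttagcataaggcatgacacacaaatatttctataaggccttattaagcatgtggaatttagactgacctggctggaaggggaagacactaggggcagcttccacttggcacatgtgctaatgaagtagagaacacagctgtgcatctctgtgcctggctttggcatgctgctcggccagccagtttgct

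The MAP4K4 interval, in an intron of a stress-activated kinase gene, spanned chr2:101785264-101785798. It had a fold enrichment over input of 37.7 and a −log10 q of 191, with 153 fragments at the summit over a background of 3.09. Its sequence is largely a CT repeat. The tandem score, the largest share of bases equal to the base a fixed number of positions upstream, was 0.776 over the printed 200 bases, but 0.402 over the wider window used to recognise repeats, which is why the interval was not set aside. The same place was in the KMT2D list of the knockdown cells with a fold enrichment of 285, and in neither of the control lists for KMT2D and EBF2. The interval at chr12:35156015-35156201, which lies 1133640 bases from ALG10, had 42 fragments over 6.79.

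The remaining 3 sequences came from intervals with 20 or 21 fragments, well above the median member. ABI3BP encodes an extracellular matrix protein, and its intronic interval had a fold enrichment of 7.71 with 21 fragments over 1.85. TNC encodes the matrix glycoprotein tenascin C, and the interval there had a fold of 7.07 and a TEAD match. The interval labelled by its nearest gene, PRELID2, lay 723860 bases from that gene start, in an intron of a lncRNA gene. It had a fold of 6.99 and no match. None of the 5 windows held the AP-1 motif.

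Among the 12 members with the highest −log10 q, 5 lay in the same region of chromosome 1. Their nearest protein-coding gene was H3-7, with its 5′ end 651284 to 710863 bases away. Their fold enrichments ran from 1.80 to 2.51, and the highest held 2361 fragments over a background of 1102. The knockdown list had intervals in the same region with folds of 1.62 to 2.70, the nearest 1206 bases from that top member. The intervals nearest to EMB, WSB1 and OR11H1 were also beside runs of undetermined bases or in tandem repeats. They lay 797164, 690224 and 3710380 bases from these gene starts. Of the 13 members with a −log10 q of at least 10, 8 were in such sequence, against 90 of all 8336 members (1.08%) and 160 of the 43591 distal control intervals with a knockdown interval within 1000 bases (0.367%).

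Members were weak intervals. Fragment numbers under the summit were recovered from the fold enrichment and p-value of each interval. The median member held 11 fragments over a background of 2.09, with quartiles of 10 and 13. The distal control intervals with a knockdown counterpart held 13. The 24225 distal intervals found only in KMT2D-KD cells held 10, over a lower median background of 1.74. The median fold enrichment was 3.74 in members, 4.21 in control intervals with a counterpart and 3.79 in intervals only in KMT2D-KD. The median widths were 276, 405 and 283 bases in the same order. A −log10 q of at least 5 was reached by 496 members (5.95%), by 29.7% of the control intervals with a counterpart and by 13.3% of the intervals only in KMT2D-KD.

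The share of distal control intervals that were members fell with the number of fragments. It was 33.1% (95% interval 31.8% to 34.5%) at up to 9 fragments, 23.6% at 10 to 11, 14.5% at 12 to 14, 6.13% at 15 to 19 and 3.64% (3.05% to 4.31%) at 20 or more. After scaling to the lower background of the knockdown library, by a factor of 0.885, the median member would hold 10 fragments where 7 would reach the lowest −log10 p of the knockdown list, 3.12. The margin exceeded the square root of the scaled count, a Poisson standard deviation, in 22.1% of members and in 51.9% of the control intervals with a counterpart. In the other members the margin was at most 1 such standard deviation. The median margin was 2 fragments in members and 4 in the control intervals with a counterpart. After the scaling, 99.7% and 99.9% of them would still reach that −log10 p. Whether counting error accounts for the absence of members from the knockdown list was not tested.

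**Figure D1:**
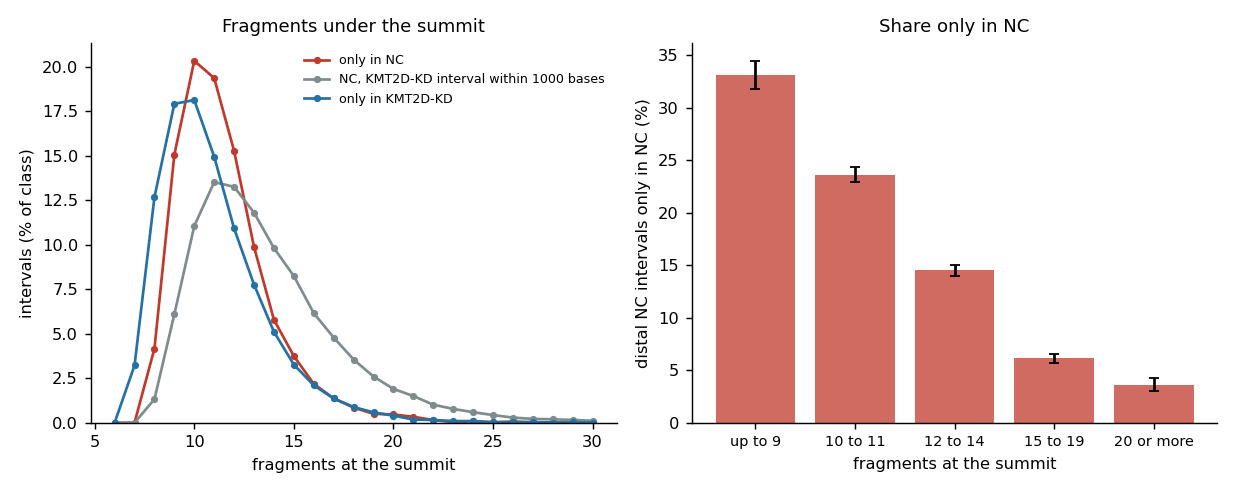
Left, the percentage of intervals of each class (vertical axis) by fragments at the summit (horizontal axis). Right, the percentage of distal NC intervals that were only in NC, by fragments, with exact binomial 95% intervals as bars. The share fell from 33.1% to 3.64%.

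Values changed little across the gap limit. The 268 members whose gap to the nearest knockdown interval was over the limit by at most 100 bases had a median fold enrichment of 3.67, and the 286 control intervals with a gap less than 100 bases under it had 3.69. Both held a median of 11 fragments. The last member inside the gap limit lay 1002 bases from a knockdown interval, near CDK1, and the first interval outside it lay at 1000 bases, near PLEKHG4B. At the distance limit, the 67 members farther than it by at most 500 bases had a median fold of 3.53, and the 56 intervals nearer than it by less than 500 bases, also without a knockdown counterpart, had 3.86. A member near FOSL2 lay 10002 bases from its gene start and an interval near TANC1 lay at 9996.

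Distal intervals found only in KMT2D-KD cells were 2.91 times as many as members, which is −1.54 on the log2 scale (95% interval −1.58 to −1.50). The knockdown list was longer, with 92135 intervals at 0.940 times the recovered depth of the control list. When the knockdown list was reduced to its best intervals, as many as the control list holds, the log2 ratio was −0.07 (−0.11 to −0.04). The direction was the same and the size much smaller.

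Members had fewer control H3K4me1 intervals around them than the control intervals with a counterpart had. The nearest knockdown interval was a median of 8910 bases away, with quartiles of 2746 and 27126 bases. Of the members, 18.6% had a knockdown interval within 2 kb, 52.4% within 10 kb and 92.8% within 100 kb. The corresponding shares of random positions are not given, so these values do not show closeness beyond the density of the knockdown list. Within 50 kb of a member there was a median of 4 other control intervals, against 8 around the control intervals with a counterpart. No other control interval lay within 50 kb of 1341 members (16.1%) and of 4.01% of the latter.

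Members lay mostly in introns. By midpoint, introns of protein-coding genes held 49.0% of them and introns of lncRNA genes 13.6%. A further 33.2% were intergenic, and 2.42% had the midpoint in an exon of a protein-coding gene. Among control intervals with a counterpart, 51.8% were in protein-coding introns (95% interval 51.3% to 52.3%, against 47.9% to 50.1% in members) and 30.2% were intergenic. The median distance to a gene start was 86559 bases in members and 67888 bases in control intervals with a counterpart. Members were thus somewhat farther from genes.

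Local base composition moved with membership. The median GC content in 10 kb around the midpoint was 40.1% in members, 41.8% in control intervals with a counterpart and 42.2% in intervals only in KMT2D-KD. When distal control intervals were divided by GC content into 5 groups of near equal size, members made up 24.0% of the most AT-rich group and 10.9% of the most GC-rich one, and the groups between fell in order. The log2 ratio of intervals only in NC to those only in KMT2D-KD moved from −0.85 (−0.92 to −0.78) to −2.55 (−2.65 to −2.46) over the same groups. The part of base composition in the other values of this section was not tested.

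Between chromosomes, members made up from 12.4% of distal control intervals on chromosome 17 (95% interval 11% to 14%) to 23.9% on chromosome X (20.9% to 27.1%), with chromosome 4 at 22.8% (20.3% to 25.4%). Chromosome Y had 5 distal control intervals and no member, which allows a share of up to 52.2%. In every autosome and in chromosome X, intervals only in KMT2D-KD were the more numerous.

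Within chromosomes the balance was less even. In 269 blocks of 10 Mb with at least 40 intervals in either class, members outnumbered intervals only in KMT2D-KD in 4, and the median log2 ratio was −1.60 (quartiles −2.09 and −1.11). A block of chromosome 14, chr14:80000001-90000000, held 53 members and 10 intervals only in KMT2D-KD, or 2.41 on the log2 scale (1.42 to 3.55). A block of chromosome 5, chr5:40000001-50000000, held 46 and 11, a log2 ratio of 2.06 (1.09 to 3.16). Blocks of chromosome 11 (66 and 40) and chromosome 10 (64 and 57) followed. These blocks were singled out after their values were seen. In blocks of 5 Mb, chromosome 14 again had the highest ratio, with 32 members and 3 intervals only in KMT2D-KD.

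The rule did not use the height of intervals found in both lists. Where a control interval overlapped a knockdown interval, the median log2 ratio of the knockdown to the control fold enrichment was 0.22 over 45195 pairs. In the chromosome 5 block it was −0.09 over 108 pairs, with quartiles of −0.26 and 0.22, the third lowest of 265 blocks with at least 20 pairs. In the chromosome 14 block it was 0.08 over 36 pairs, with quartiles of −0.22 and 0.32, the 12th lowest. The blocks of chromosomes 10 and 11 were 73rd and 81st. Pairs of 1 block share their libraries and neighbours, so these medians are descriptions. Copy number and input coverage in these blocks were not tested.

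**Figure D2:**
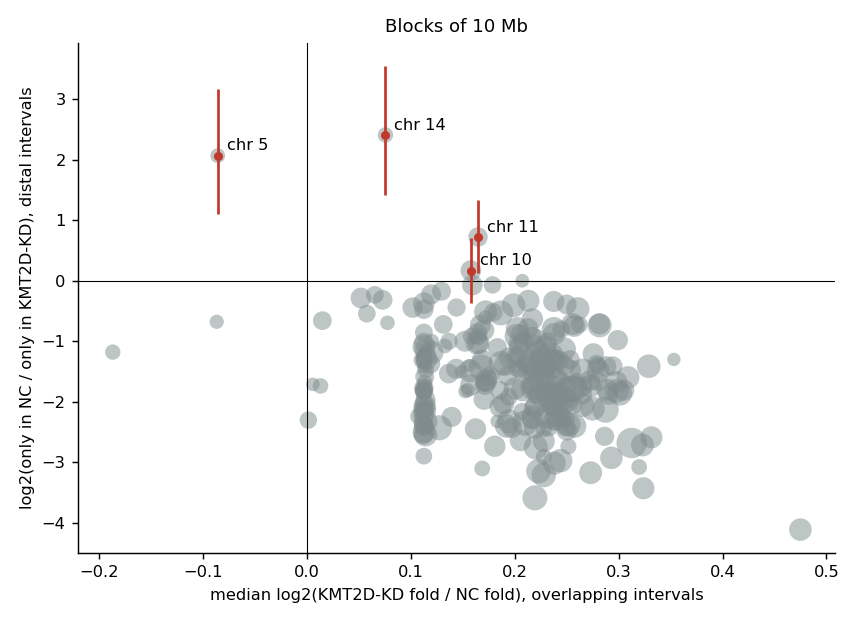
Each point is a 10-Mb block with at least 20 overlapping interval pairs. The horizontal axis is the median log2 ratio of fold enrichments at overlapping intervals, the vertical axis the log2 ratio of distal intervals only in NC to only in KMT2D-KD, and point area grows with the number of intervals. The 4 blocks above 0 are in red with 95% intervals.

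Along the chromosome 14 block, members outnumbered intervals only in KMT2D-KD in most megabases. The megabase beginning 5 Mb into the block held 10 members, no interval only in KMT2D-KD and 1 control interval with a counterpart. In the chromosome 5 block, the megabases beginning 2 and 3 Mb into it held 11 and 17 members against 1 and 1 intervals only in KMT2D-KD. SELENOP, which encodes the plasma selenium carrier selenoprotein P, lies in the first of these, and all 6 of its distal control intervals were members. They had 18 to 28 fragments at folds of 2.95 to 3.45, against medians of 11 and 3.74 in all members. Their recovered background was thus above the member median.

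**Figure D3:**
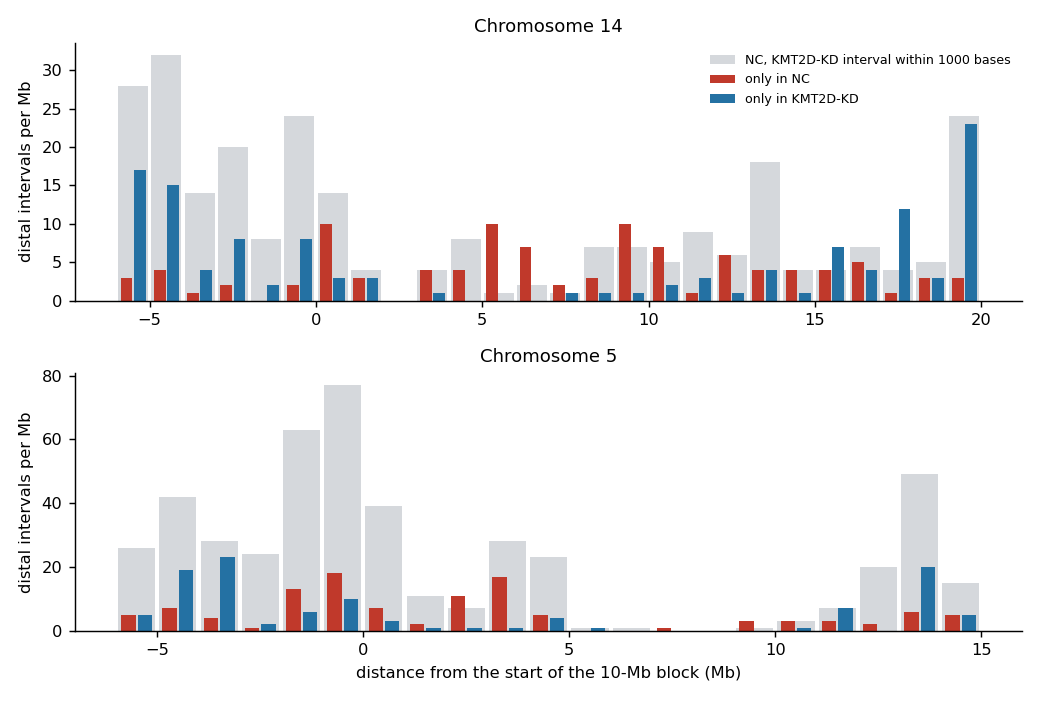
Distal intervals per megabase (vertical axis) along the chromosome 14 and 5 blocks and their neighbouring megabases, by distance from the block start in Mb (horizontal axis). Wide grey bars are NC intervals with a KMT2D-KD interval within 1000 bases, red bars those only in NC and blue bars those only in KMT2D-KD.

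Most members were alone between knockdown intervals. Of the stretches between neighbouring knockdown intervals that held a member, 5163 held exactly 1, and 8 held 6 or 7. The stretch chr14:89001189-89507160 held 7 with folds of 3.16 to 4.61 and includes part of FOXN3, a forkhead repressor gene. Stretches holding 6 lay on chromosome 18, where they reached PIK3C3, on chromosome 5 at SELENOP, and on chromosomes 14 and 2 without a protein-coding gene between the outermost members. The lengths of these 5 stretches ran from 411 to 548 kb.

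A total of 2432 protein-coding genes (12.1% of 20033) held at least 1 member, and 1482 of these held 1. TBC1D5, which encodes a regulator of endosomal trafficking, held 19 members, 16 control intervals with a counterpart and 6 intervals only in KMT2D-KD. Members were thus 54.3% of its 35 distal control intervals, with a 95% interval of 36.6% to 71.2%. ZBTB20, which encodes a zinc finger repressor, held 18, 32 and 3, a share of 36.0% (22.9% to 50.8%). PDE4D, which encodes a cAMP phosphodiesterase, held 16, 85 and 39, a share of 15.8% (9.33% to 24.4%) that is close to the 16.1% over all distal control intervals.

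The other genes of the ranking held from 10 to 13 members. SBF2, AUTS2 and DLG2 held 13 members each. VAV3, an activator of small GTPases, PARD3, a cell polarity scaffold, NAV3, RAD51B and PCDH15 held 12 each. CDK6, the cyclin D partner kinase, and OSBPL10 held 11, and BCAR3 and TTC28 held 10. The share was highest at PCDH15, where 12 of 16 distal control intervals were members (75%, 47.6% to 92.7%), and at NAV3, with 12 of 19 (63.2%, 38.4% to 83.7%). It was lowest at RAD51B, with 12 of 98 (12.2%, 6.49% to 20.4%), and at BCAR3, with 10 of 80 (12.5%, 6.16% to 21.8%).

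**Figure D4:**
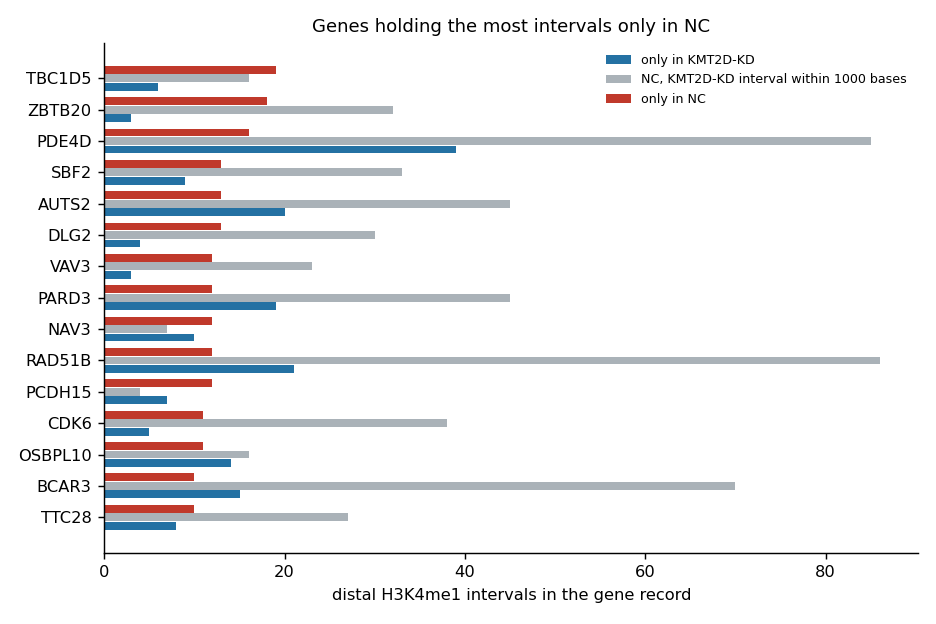
Distal H3K4me1 intervals (horizontal axis) of each class in the 15 protein-coding genes with the most members. TBC1D5, NAV3 and PCDH15 held more members than control intervals with a counterpart.

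Of the 133 genes with at least 5 members, 64 held more members than intervals only in KMT2D-KD and 6 held none of the latter. Holding many members favours this by the choice of genes. Among all 5287 genes with an interval of either class, 987 (18.7%) held more members. Genes without a member could not do so, and these 987 were 40.6% of the 2432 genes holding a member. In 31 of the 133, the 95% interval of the member share lay above 16.1%. The choice of genes by their members favours this too, and no such count over all genes is given. The 6 genes with none, singled out after their values were seen, were PPFIBP2 (9 members), GPR158 (9), MET (7), SELENOP (6), TBC1D4 (6) and FOXN3 (5). MET encodes the hepatocyte growth factor receptor, and 17 of its 24 distal control intervals had a knockdown counterpart. GPR158, an orphan receptor gene, had 2 of 11 with one. The fragments under the members ran from 10 to 14 at MET and from 8 to 13 at GPR158.

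Each member was also assigned to the protein-coding gene with the nearest 5′ end, at any distance, which gave 4111 genes (20.5%). The assignment does not show that a member acts on that gene. The lists of genes below were chosen with results of these data known. Among 32 axon guidance ligands and receptors, 22 had a member, and members were 21.2% of their distal control intervals (95% interval 17.2% to 25.7%). EFNA5, an ephrin ligand, had 13, SEMA3A, a secreted semaphorin, had 8, and PLXNA2, a semaphorin receptor, had 6. Among 16 regulators of epithelial to mesenchymal transition and cadherins, 14 had a member, and the share was 22.2% (16.1% to 29.2%), with a lower limit at the background. Against intervals only in KMT2D-KD, the log2 ratio of this list was −1.52 (−2.10 to −0.97), near the −1.54 over all genes. CDH6 had 9, CDH2, which encodes N-cadherin, had 6, and TWIST1 had 5. Their members lay 86.0 to 1723, 62.8 to 994 and 53.1 to 348 kb from the 5′ end. Those of EFNA5, SEMA3A and PLXNA2 lay 51.3 to 1498, 13.8 to 278 and 22.8 to 636 kb from it. The share of distal control intervals is given beside the 16.1% over all genes.

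Integrin and laminin genes had a share of 6.29% (3.06% to 11.3%), with 10 members at 6 of 19 genes. ITGA1 and ITGA6, which encode integrin alpha chains, had 2 members each. The epithelial KLF, ETS and Grainyhead factors had 10.6% (7.23% to 14.9%), led by GRHL2 with 6, KLF6 with 5 and ETS2 with 4. The other lists had intervals that included 16.1%. Among endoderm and pancreas factors the share was 13.7%, with 9 members nearest to SOX9, the ductal progenitor factor, and 3 to ISL1. These lay 113 to 828 kb from the 5′ end of SOX9 and 21.5 to 161 kb from that of ISL1. AP-1 and TEAD factors had 11.8%, led by TEAD1 with 6, FOSL2 with 5 and WWTR1 with 3. TGF-beta and BMP receptors and SMAD factors had 13.3%, led by ACVR2A and TGFB2 with 7 each and TGFBR2 with 5. The distances were 707 to 1605 kb at ACVR2A, 14.3 to 391 kb at TGFB2 and 14.9 to 916 kb at TGFBR2. Wnt receptors and feedback genes had 12%, led by DKK1 with 6 and AXIN2 and TCF7L2 with 3 each. The enzymes and partners of H3K4 methylation had 2 members in all, 1 each nearest to KDM6A and KMT2C.

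The KMT2D and EBF2 lists were short, with 238 to 318 intervals each and 1160 together, so that they could overlap only a small share of members whatever their position. They overlapped 19 of 8336 members (0.228%, 0.137% to 0.356%), and 67 of 43591 control intervals with a counterpart (0.154%, 0.119% to 0.195%). In the control cells alone, 9 members lay in a KMT2D interval and 13 in an EBF2 interval. Of the 19, 14 were in tandem repeats or beside undetermined bases. The 5 others were the MAP4K4 repeat and the intervals nearest to ALG10, POTEA, ZNF716 and OR11H1. Apart from MAP4K4, none of these was within 1 Mb of the gene start. Their tandem scores ran from 0.301 to 0.438, below the limit of 0.5. A tandem repeat can score below this limit, as that at MAP4K4 did, and repeats of other kinds were not searched for. These 5 therefore cannot be called free of repeats. Of the 10 with the highest −log10 q, 4 were among the chromosome 1 intervals with H3-7 as nearest gene. The others were nearest to MAP4K4, EMB, ALG10, WSB1, OR11H1 and AQP7B.

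Of 9 motifs searched on both strands, that of AP-1 (TGANTCA) stood highest over its surroundings. In the 200 bases around the summit, the AP-1 motif was in 10.7% of members (95% interval 10% to 11.4%), and in 6.51% of windows of the same length 2000 bases away on both sides. It was found in 7.87% (7.62% to 8.13%) of control intervals with a counterpart, 8.98% (8.63% to 9.35%) of intervals only in KMT2D-KD and 8.06% of all control intervals. Members thus had the highest AP-1 share of these classes at the summit.

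In each of 4 groups by interval width the AP-1 share of members was above that of control intervals with a counterpart, at 10.2% against 7.98% in the narrowest group and 12.4% (9.19% to 16.2%) against 7.76% (7.30% to 8.25%) in the widest. In 1000 bases around the summit, a window added after the values were seen, the shares were 47.6% in members, 45.1% in control intervals with a counterpart and 41.4% in intervals only in KMT2D-KD. In windows of 100 bases, each class had a dip at the summit and higher shares on both sides of it. The highest in members was 7.15%, 200 bases from the summit, and the highest in control intervals with a counterpart was 6.27%, 300 bases from it. Farther than 400 bases from the summit, control intervals with a counterpart had the higher share.

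**Figure D5:**
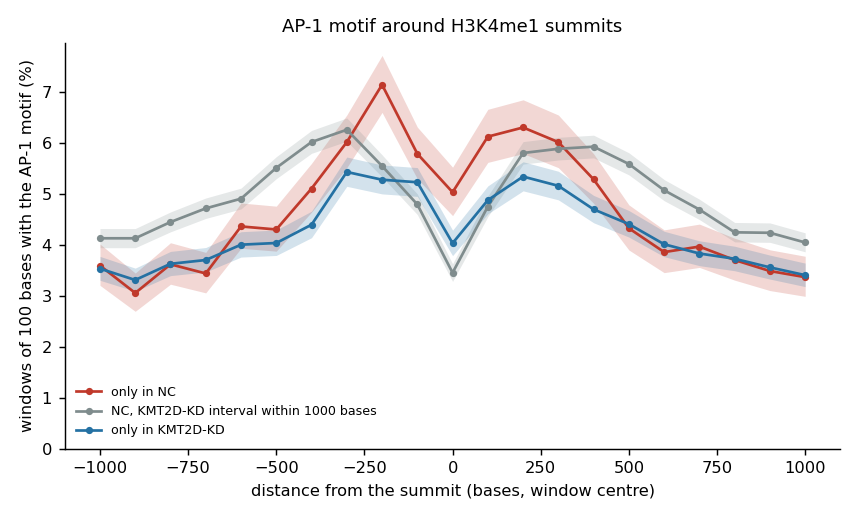
Percentage of 100-base windows with the AP-1 motif (vertical axis) by distance from the H3K4me1 summit in bases (horizontal axis), with exact binomial 95% intervals shaded. Members were at 5.04% at the summit and control intervals with a counterpart at 3.46%.

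Other motifs differed less between member summits and their flanks. The TEAD motif (GGAATG) was in 13.5% of member summits against 10.8% of the flanking windows, and in 12.2% of control intervals with a counterpart. The CACCC box of KLF and SP factors (CCACACCC) was in 2.59% against 1.72% of flanks. The AT-rich motifs of GATA factors, AGATAA (13.4% against 14.8%), and of HNF1, GTTAAT (7.80% against 9.43%), were below their flanks, as they were in the other classes. The motif of FOXA, TGTTTAC (3.27% against 3.28%), and that of ETS factors, CCGGAA (1.27% against 1.10%), had overlapping 95% intervals at members and flanks. So did the EBF core CCCNNGGG (3.27% against 2.85%) and the CTCF core AGGGGGC (1.61% against 1.70%). Intervals only in KMT2D-KD had higher summit shares than members for the CACCC box (3.74%), EBF core (4.36%), CTCF core (2.31%) and ETS motif (1.65%). Their shares were lower for TEAD (12.3%), GATA (10.9%), HNF1 (6.28%) and FOXA (2.76%). Except for TEAD, at 10.8% in both, the flanks of these intervals differed from member flanks in the same directions. The flank shares were 2.299% for the CACCC box, 3.998% for the EBF core, 2.19% for the CTCF core and 1.53% for ETS. They were 13.3% for GATA, 8.41% for HNF1 and 2.88% for FOXA. Median GC content in the 200 bases was 46.5% in these intervals and 43% in members. Its part in the motif shares was not tested. A match is a description of the sequence and not a bound site.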

How the data were processed

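The 6 lists came from ChIP of 3 targets in 2 conditions of SW1990 cells. Groups were taken from the sample titles. The authors discarded adapter-containing, low-quality and N-containing reads and used bwa for alignment. The submitters' processing notes name hg38, BWA, MACS2 and HOMER, and their versions and settings are not given in the sources used here. For each interval the authors deposited a score, a fold enrichment over input at the summit (a ratio), and the p-value and q-value, each as −log10. The score column was not analysed.

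Members and gene lists were chosen with earlier results of these data known. Fragments and background were solved from fold = (fragments + 1) / (background + 1) and the Poisson p-value, within 0.001 of the deposited −log10 p, for 64839 of 64843 control and 92128 of 92135 knockdown H3K4me1 intervals. The recovered background was 9.89 fragments per 1000 bases in NC and 9.29 in KMT2D-KD. An interval counted as repeat where its tandem score (lags up to 250 bases, window of at least 1000 bases) reached 0.5, or where it lay within 50 kb of at least 1000 undetermined bases. The threshold was chosen after the data were seen, and repeats of other kinds were not searched for. Shares have exact binomial (Clopper-Pearson) 95% intervals, which treat intervals as independent and cover counting error only, and log2 ratios an interval derived from them. No test between conditions was possible with 1 library each.

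Named were the 12 members with the highest −log10 q, the 15 genes holding most members, the 6 stretches holding most members, up to 10 members in KMT2D or EBF2 intervals, 3 genes per gene list, and up to 6 sequences from the 12 members. Sequences of 3 of the 12 are printed, and 2 from lower in the order were added. Some items that these rules name are not reported here. Others are named as chosen after their values were seen. The scripts used python 3.11.15, scipy 1.17.1 and pysam 0.24.0, and recovery of fragments, distances and motif matches was tested on simulated data.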

Additional observations from a re-analysis of the deposited data

How the results depend on the processing

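Requiring only that no base overlapped gave 15780 members, 30.4% of distal control intervals, a log2 ratio to intervals only in KMT2D-KD of −1.25, 64.5% in introns, 0.133% in KMT2D or EBF2 intervals and 74.9% with a knockdown interval within 10 kb. A gap over 2000 bases gave a share of 13.1%, 61.5% in introns and 41.5% within 10 kb. A gap over 5000 bases gave 5202 members, a share of 10.02%, 60.2% in introns and 23.7% within 10 kb. A distance over 5 kb from gene starts gave 53.9% within 10 kb, and one over 20 kb gave 51.3% and a log2 ratio of −1.48. Using the first bases of every transcript gave 6839 members, a share of 16.5%, a log2 ratio of −1.47, 56.8% in introns and 51.1% within 10 kb.

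A −log10 q of at least 5 in the counted list gave 496 members, 3.69% of such distal intervals, a log2 ratio of −2.70, 59.1% in introns, 2.82% in KMT2D or EBF2 intervals and 53.8% within 10 kb. The same limit in both lists gave 2865, 21.3%, −2.07, 0.698% in KMT2D or EBF2 intervals and 39.4% within 10 kb. With equal numbers of intervals in the lists there were 12602 members, a share of 24.3%, a log2 ratio of −0.073 and 48.0% within 10 kb. Without the intervals counted as repeat, 0.0606% of members lay in KMT2D or EBF2 intervals. The AP-1 share was 16.8% in 300 bases, 47.6% in 1000 bases and 9.68% in members with a −log10 q of at least 5. On chromosome X the share only in NC was 7.45% with that limit and 42.2% without overlap. The log2 ratio was negative under every alternative tried. Beyond fewer intervals or a changed gap or window, the causes of these shifts were not tested. No paired analysis was possible because each target and condition had 1 library.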

Other observations

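Among lncRNA genes, which had no part in the choice of members, ENSG00000234810 on chromosome 1 held the most members, 16, beside 55 control intervals with a knockdown counterpart and 8 intervals only in KMT2D-KD. DELEC1 on chromosome 9 held 11, 26 and 5. FBXO38-DT on chromosome 5 held 6, 17 and 0, and ENSG00000285842 on chromosome 11 held 6, 2 and 0. LINC00882 on chromosome 3 held 6, 11 and 1. MIR100HG, the host transcript of a microRNA cluster, held 6, 40 and 18.

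The opposite balance was found in other blocks of 10 Mb. The block chr4:160000001-170000000 held 2 members and 41 intervals only in KMT2D-KD, and the last block of chromosome 7 held 8 and 138. At overlapping intervals of that chromosome 7 block, the median log2 ratio of the knockdown to the control fold enrichment was 0.47 over 57 pairs, the highest of the 265 blocks. The lowest was that of chr4:100000001-110000000, at −0.19.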
